A study of Mus musculus with 48 samples.

Results

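Mouse embryonic stem cells cultured with vitamin C (Vc_24h, 2 libraries) were compared with cells cultured without the added small molecules (Con_24h, 2 libraries) after 24 h. These 4 libraries were chosen by the group and time in their labels and are 4 of the 48 samples of the series. The others are the 48 h libraries, cells given AM580 without or with vitamin C (the latter also on later days), gonadal cells, primordial germ cells from aggregates and a single-cell sample. The cells were female ESCs of C57BL/6 background, which were kept in 2i and LIF on inactivated mouse embryonic fibroblast feeders. The feeders were removed by their faster adherence, and the cells were moved to fibronectin in ES medium from which 2i and LIF had been left out, so the controls had also been withdrawn from 2i and LIF. AM580 is an agonist of the retinoic acid receptor alpha, and V580 is vitamin C given together with AM580. The study used these compounds to turn ESCs towards gonadal somatic-like cells. RNA was read as poly-A RNA-seq, and levels are given as FPKM (fragments per kilobase of exon, scaled to the library's total), which corrects for gene length and depth. No label says whether the 2 libraries of a group came from separate cultures, so the p-values measure the spread between libraries, which may be technical.

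Vitamin C (ascorbate) keeps the iron of Fe(II)- and 2-oxoglutarate-dependent dioxygenases reduced. This enzyme family holds the TET enzymes, which oxidise 5-methylcytosine in DNA, the JmjC histone demethylases, the prolyl hydroxylases that make collagen stable and the EGLN prolyl hydroxylases that mark HIF transcription factors for degradation. In ESCs vitamin C is known for raising TET activity and for loss of DNA methylation at the promoters of germline genes. None of these activities was measured by RNA-seq, which reports transcript levels only.

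The depth recovered from the FPKM values was between 16442639 and 19661733 fragments in the 4 libraries, so that 1 fragment on 2000 bases of exon was worth 0.0254 to 0.0304 FPKM. Replicate libraries differed from each other by a root mean square of 0.13 (Con_24h) and 0.15 (Vc_24h) on the log2(FPKM + 1) scale, more than in the other 6 groups (0.102 to 0.118), and Vc_24h from Con_24h libraries by 0.178 to 0.203. The labelled cell type was matched by its markers: all 9 pluripotency markers were detected in each of the 4 libraries, with a summed level of 4550 and 4930 FPKM in Con_24h and 4727 and 4273 FPKM in Vc_24h. Fibroblast markers were also present, summing to 566 and 575 FPKM in Con_24h and 563 and 524 FPKM in Vc_24h over 17 genes. Of the 13 fibroblast markers tested, 1 (Col1a2) was called higher with vitamin C. Extraembryonic endoderm markers summed to 731 and 740 FPKM in Con_24h and to 803 and 777 FPKM in Vc_24h, and germ cell markers, a list that includes Dazl, to 47.7 and 48.9 against 60.1 and 61.3 FPKM. Of the 15 endoderm markers tested 1 was called higher and 2 lower, and of the 7 germ cell markers 2 were called higher (Dnd1 and Dazl). Over all genes tested, 7.57% were called higher and 5.98% lower. The summed endoderm and germ cell markers were thus higher in both Vc_24h libraries than in both controls, and their part in the results below was not tested. In such bulk libraries, more cells of a type and more RNA per cell cannot be told apart.

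Vitamin C was followed by many small changes and few large ones. Of 10644 genes tested with limma on log2(FPKM + 1), 1443 (13.6%) passed a Benjamini-Hochberg adjusted p below 0.05, 806 higher (7.57%) and 637 lower (5.98%) in Vc_24h. The median absolute log2 fold change of these called genes was 0.27, 884 of them moved by less than 0.3, and 109 moved by at least 0.5 (64 higher and 45 lower). At least 2-fold changes on this scale were found in 9 called genes (0.0846% of genes tested), and with a pseudocount of 0.1 in place of 1, which shrinks low genes less, in 42. For all 1443 called genes the Vc_24h and Con_24h libraries did not overlap, which held for 47.4% of all genes tested. The median log2 fold change over all genes tested was -0.003. The spread was estimated from all 16 RNA-seq libraries of both time points; from these 4 libraries alone, 257 genes passed (154 higher and 103 lower). Leaving out 1 of the 4 libraries left 850 to 1369 called genes: 850 without Con_24h replicate 1, 920 without Con_24h replicate 2, and 47.7% of the calls were higher without Vc_24h replicate 1 against 55.9% with all libraries.

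**Figure D1:**
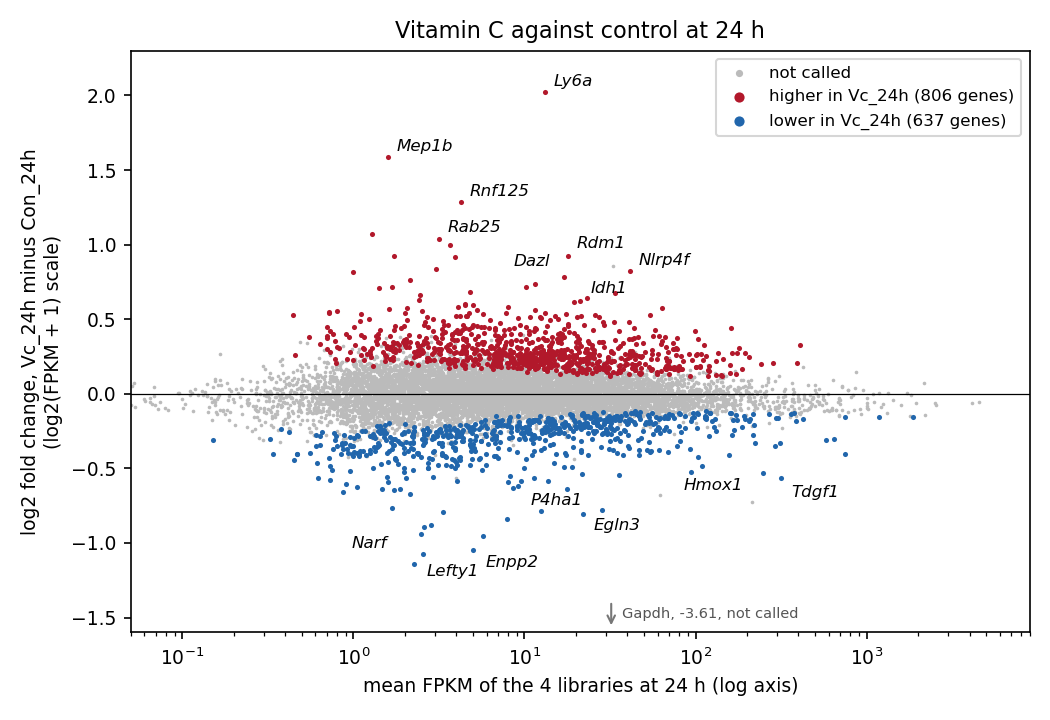
Log2 fold change between Vc_24h and Con_24h on the log2(FPKM + 1) scale (vertical) against the mean FPKM of the 4 libraries on a log axis (horizontal), 1 point a gene, with the 806 genes called higher in red and the 637 called lower in blue. Most called genes lie close to the line at 0, Ly6a lies highest, and Gapdh, not called, is marked by an arrow below the axis range.

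On the log2(FPKM + 1) scale the largest rise was that of Ly6a (chr15:74994877-74998031, mm10), which encodes the surface antigen Sca-1 used to mark several stem and progenitor cells. Ly6a was at 4.43 and 4.74 FPKM in Con_24h and 20.8 and 22.6 FPKM in Vc_24h, 4.73-fold more, with a log2 fold change of 2.02 (SE 0.10, adjusted p = 3.17e-08). These levels rest on 105 and 107 fragments in the controls and 454 and 447 with vitamin C, and reads of Ly6a may be shared with close copies in the Ly6 cluster. Mep1b, the beta subunit of the metalloprotease meprin, was nearly silent in the controls. It was at 0.356 and 0.233 FPKM in Con_24h and 2.71 and 3.06 FPKM in Vc_24h, a greater ratio of FPKM (9.78-fold) than that of Ly6a but a log2 fold change of 1.58 (SE 0.08, adjusted p = 1.95e-08) on this scale, and since it stayed below 5 FPKM it is named for its difference between times, given further on. The ubiquitin ligase gene Rnf125 rose from 1.79 and 2.32 FPKM in Con_24h to 5.84 and 7.02 FPKM in Vc_24h, by 1.28 (SE 0.11, adjusted p = 4.90e-06). Both Vc_24h libraries thus lay well above both controls for these 3 genes.

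Rdm1, Apcdd1 and Nlrp4f were among the next largest rises. Rdm1, a RAD52-motif protein, was at 11.4 and 12.9 FPKM in Con_24h and 25.2 and 22.6 FPKM in Vc_24h (1.97-fold, log2 fold change 0.92, SE 0.07, adjusted p = 1.90e-06). Apcdd1, a membrane inhibitor of Wnt signalling, was at 2.49 and 2.34 FPKM in Con_24h and 5.13 and 5.76 FPKM in Vc_24h, with a log2 fold change of 0.91 (SE 0.09, adjusted p = 1.92e-05). Nlrp4f, of a family of NLR genes expressed in oocytes with close copies in the genome, was at 29.0 and 30.4 FPKM in Con_24h and 52.9 and 53.8 FPKM in Vc_24h with a log2 fold change of 0.82 (SE 0.05, adjusted p = 2.94e-07). Other rises among the top 12 genes of at least 5 FPKM were in B4galt6, Bcl3, Fam131c, Car2, Acta1 and Gm14322. B4galt6, a lactosylceramide synthase, rose by 0.73 (SE 0.08, adjusted p = 3.51e-05), Bcl3, a nuclear IkB protein, by 0.72 (SE 0.07, adjusted p = 2.40e-05), and Fam131c by 0.68 (SE 0.09, adjusted p = 1.93e-04). Car2, a carbonic anhydrase, rose by 0.68 (SE 0.06, adjusted p = 9.33e-06) and the skeletal actin gene Acta1 by 0.64 (SE 0.10, adjusted p = 0.00102). Gm14322 scattered widely. It was at 2.35 and 1.74 FPKM in Con_24h and 3.61 and 6.98 FPKM in Vc_24h, and although its log2 fold change was 1.00 (SE 0.25, adjusted p = 0.0148), the replicates with vitamin C differed more from each other than the nearer one did from the controls. Gm14322 did not pass with the spread of these 4 libraries alone, without Con_24h replicate 2 or without Vc_24h replicate 2 (adjusted p from 0.0663 to 0.123).

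Enpp2 and Sfrp1 were among the 12 largest falls in genes of at least 5 FPKM. Enpp2 encodes autotaxin, the secreted enzyme that makes lysophosphatidic acid. It was at 6.76 and 7.46 FPKM in Con_24h and 3.00 and 2.83 FPKM in Vc_24h, 2.44-fold less, with a log2 fold change of -1.05 (SE 0.09, adjusted p = 4.87e-06). Sfrp1, a secreted antagonist of Wnt ligands, was at 10.9 and 10.1 FPKM in Con_24h and 5.24 and 5.55 FPKM in Vc_24h, a log2 fold change of -0.84 (SE 0.06, adjusted p = 1.49e-06). For both genes the Vc_24h libraries were below the controls. Ngfr, the p75 neurotrophin receptor, fell by 0.79 on the log2 scale (SE 0.10, adjusted p = 2.37e-04), and the simple-epithelium keratin gene Krt19 fell by 0.64 (SE 0.10, adjusted p = 5.87e-04). Klhl13, an X-linked adaptor of cullin 3 ubiquitin ligases, was at 16.4 and 16.8 FPKM in Con_24h and 10.8 and 10.7 FPKM in Vc_24h (-0.58, SE 0.04, adjusted p = 1.49e-06), and Aoah, which inactivates lipopolysaccharide, fell by 0.58 (SE 0.08, adjusted p = 4.24e-04). The log2 fold changes of Crct1, Cdkn1c (the imprinted cell cycle inhibitor p57) and Sarnp were -0.63, -0.59 and -0.78, with wider scatter between replicates: Sarnp was at 31.0 and 40.6 FPKM in Con_24h and 16.8 and 24.4 FPKM in Vc_24h. Crct1 and Cdkn1c did not pass with the spread of these 4 libraries alone, without Con_24h replicate 2 or without Vc_24h replicate 2 (adjusted p from 0.0543 to 0.0959). Sarnp did not pass with the spread of these 4 libraries alone, without Con_24h replicate 2 or without Vc_24h replicate 1 (adjusted p from 0.0618 to 0.0897).

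**Figure D2:**
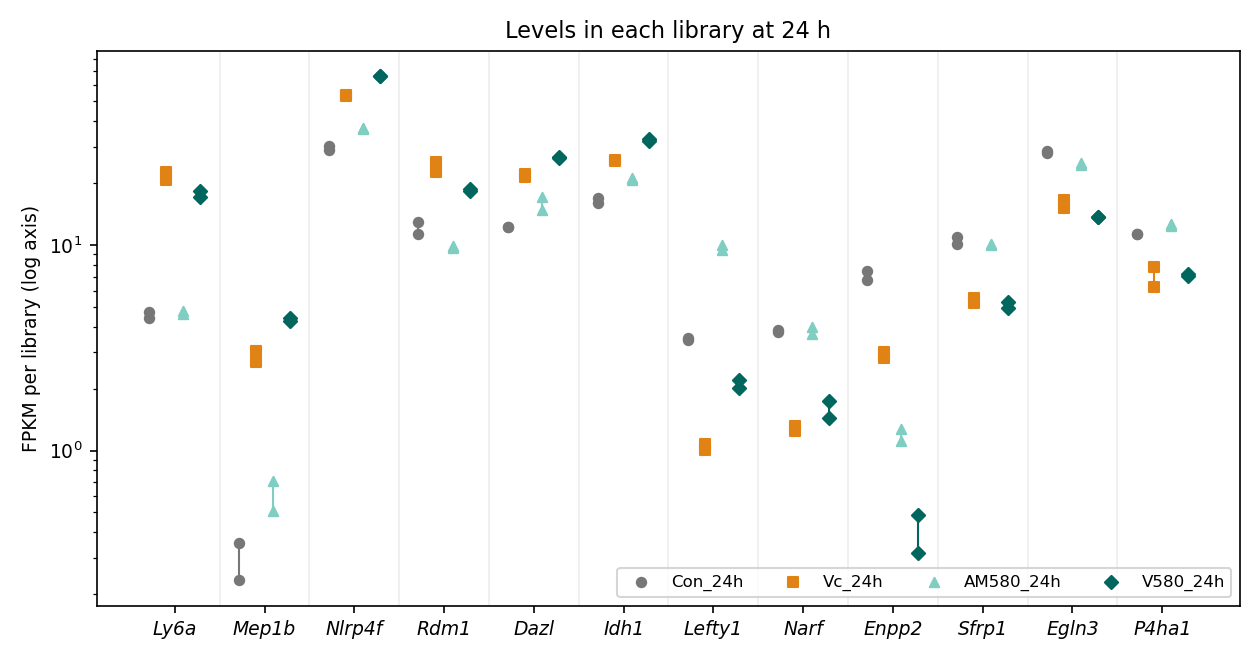
FPKM on a log axis in each of the 8 libraries of 24 h (Con_24h, Vc_24h, AM580_24h and V580_24h, 2 each, joined by a line) for 12 genes described in the text. In all 12 genes both Vc_24h libraries lie on one side of both Con_24h libraries, with Mep1b and Ly6a the furthest apart.

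Of the genes that take up vitamin C, Slc23a1, a sodium-dependent ascorbate transporter, rose to 1.09 and 0.902 FPKM from 0.518 and 0.609 FPKM in the controls, a log2 fold change of 0.35 (SE 0.09, adjusted p = 0.0139). Slc2a1, the glucose transporter GLUT1 that also carries dehydroascorbate, fell by 0.24 (SE 0.04, adjusted p = 0.001). The other sodium-dependent transporter, Slc23a2, did not pass the test at -0.08 (SE 0.08, adjusted p = 0.545). Thus 1 of 4 tested uptake genes rose and 1 fell, against 7.57% higher and 5.98% lower among all genes tested. Slc23a1 did not pass with the spread of these 4 libraries alone, without Con_24h replicate 1 or without Vc_24h replicate 1 (adjusted p from 0.0791 to 0.0924). Slc2a1 did not pass with the spread of these 4 libraries alone (adjusted p = 0.12).

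The TET genes were not called. Tet1 was at 30.7 and 22.9 FPKM in Con_24h and 21.2 and 32.6 FPKM in Vc_24h, and since its replicates differed by more than its group means, the 95% interval of its log2 fold change ran from -0.34 to 0.32. For Tet2 the interval was -0.15 to 0.29, for Tet3 -0.15 to 0.18 and for Tdg, the glycosylase that removes oxidised methylcytosine, -0.13 to 0.08. Over all genes tested, 7.57% were called higher and 5.98% lower. Of the 11 genes of DNA methylation and demethylation, 5 rose, 1 fell and 5 were not called, with a median log2 fold change of 0.07. The largest of these rises was that of Idh1, the cytosolic isocitrate dehydrogenase that makes 2-oxoglutarate, at 15.97 and 16.9 FPKM in Con_24h and 25.7 and 25.9 FPKM in Vc_24h (0.62, SE 0.04, adjusted p = 1.38e-06). Its mitochondrial relative Idh2 rose by 0.38 (SE 0.05, adjusted p = 1.84e-04). The de novo DNA methyltransferase gene Dnmt3b rose by 0.28 (SE 0.04, adjusted p = 3.88e-04), whereas Dnmt3l, its catalytically inactive partner, fell by 0.30 (SE 0.06, adjusted p = 0.00449), and Dnmt1, which copies methylation at replication, did not pass at 0.06 (SE 0.05, adjusted p = 0.427). Dnmt3b and Dnmt3l did not pass with the spread of these 4 libraries alone (adjusted p from 0.0841 to 0.153). Among 17 JmjC histone demethylase genes, 1 rose (Kdm2b, 0.20), 1 fell (Kdm4c, -0.39) and 15 were not called. This is near the 13.6% called over all genes tested. Kdm2b did not pass with the spread of these 4 libraries alone, without Con_24h replicate 2 or without Vc_24h replicate 2 (adjusted p from 0.139 to 0.222).

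Of 19 genes for hydroxylases of collagen and HIF and their partners, 2 rose, 3 fell and 14 were not called. Over all genes tested, 7.57% were called higher and 5.98% lower. Within this list the falls were the largest, in Egln3 and P4ha1. Egln3 (PHD3), itself an enzyme that hydroxylates HIF and a gene that HIF induces, was at 28.6 and 28.0 FPKM in Con_24h and 15.1 and 16.495 FPKM in Vc_24h, 1.79-fold less, with a log2 fold change of -0.80 (SE 0.05, adjusted p = 2.14e-07). P4ha1, a catalytic subunit of collagen prolyl 4-hydroxylase, was at 11.3 and 11.3 FPKM in Con_24h and 7.81 and 6.24 FPKM in Vc_24h, a log2 fold change of -0.62 (SE 0.08, adjusted p = 1.31e-04), and P4hb, its partner subunit, fell by 0.19 (adjusted p = 0.00684). The rises were P4htm (0.42, SE 0.09, adjusted p = 0.00782) and P3h4 (0.36, SE 0.06, adjusted p = 7.18e-04). Egln1 and Egln2, the other EGLN genes, had log2 fold changes of -0.10 (SE 0.05, adjusted p = 0.229) and 0.13 (SE 0.05, adjusted p = 0.118). Of collagen and basement membrane genes, 1 of 19 rose (Col1a2, 0.32) and 2 fell (Lama1, -0.35, and Lamb1, -0.22), which is near the 13.6% called over all genes tested. P4htm did not pass with the spread of these 4 libraries alone, without Con_24h replicate 1 or without Vc_24h replicate 2 (adjusted p from 0.0639 to 0.0713). P3h4 did not pass with the spread of these 4 libraries alone (adjusted p = 0.0518). Col1a2 did not pass with the spread of these 4 libraries alone or without Con_24h replicate 2 (adjusted p from 0.0544 to 0.0747). Lama1 and Lamb1 did not pass with the spread of these 4 libraries alone, without Con_24h replicate 1 or without Vc_24h replicate 1 (adjusted p from 0.0693 to 0.234).

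Genes that HIF is known to induce in low oxygen fell more often than they rose. Of 38 such genes tested (of 41 listed), 18 fell, 3 rose and 17 were not called, against 5.98% lower and 7.57% higher among all genes tested, and their median log2 fold change was -0.18. Egln3 and P4ha1, described above, are members of this list as well. Narf fell furthest, from 3.77 and 3.84 FPKM in Con_24h to 1.32 and 1.24 FPKM in Vc_24h, a log2 fold change of -1.07 (SE 0.07, adjusted p = 2.40e-07). Ddit4, an inhibitor of mTORC1 signalling induced by stress, was at 26.5 and 25.4 FPKM in Con_24h and 19.7 and 15.7 FPKM in Vc_24h (-0.54, SE 0.09, adjusted p = 0.00139). Some glycolytic enzymes of the list fell from high levels, while Hk1, Hk2, Gpi1, Aldoa, Aldoc and Pgam1 were not called. Ldha, lactate dehydrogenase A, was at 339 and 353 FPKM in Con_24h and 288 and 263 FPKM in Vc_24h (-0.33, SE 0.04, adjusted p = 2.26e-04), and Pgk1, phosphoglycerate kinase, was at 317 and 336 FPKM in Con_24h and 267 and 245 FPKM in Vc_24h (-0.35, SE 0.05, adjusted p = 2.15e-04). Both Vc_24h libraries were below both controls in each of these. Other falls were in Ndrg1 (-0.40), Pfkfb3 (-0.38), Slc16a3 (-0.38), Pfkl (-0.37), Ankrd37 (-0.35), Bhlhe40 (-0.32), Eno1 (-0.31), Bnip3 (-0.26) and Vegfa (-0.25), given as log2 fold changes. Vegfa is the angiogenic growth factor, Slc16a3 exports lactate, and Bnip3 acts in the removal of mitochondria. Pdk1 and Pfkp, which hold pyruvate back from mitochondria and drive an early step of glycolysis, went the other way. Pdk1 was at 14.4 and 15.3 FPKM in Con_24h and 20.5 and 21.3 FPKM in Vc_24h (0.47, SE 0.05, adjusted p = 4.43e-05) and Pfkp at 5.64 and 5.56 FPKM in Con_24h and 7.69 and 8.20 FPKM in Vc_24h (0.44, SE 0.06, adjusted p = 2.97e-04), and Mxi1 rose by 0.21. Gapdh, another glycolytic gene of the list, was at 51.1 and 69.5 FPKM in Con_24h and 3.21 and 4.84 FPKM in Vc_24h but was not called (-3.61, SE 1.53, adjusted p = 0.142), and its AM580_24h replicates were also far apart, at 11.2 and 80.7 FPKM. Beyond Narf, Egln3, P4ha1 and Ddit4, these genes were chosen for naming after their values were seen. Without 1 of the 4 libraries, 13 to 17 of the list fell and 2 to 4 rose, and with the spread of these 4 libraries alone 7 fell and 2 rose. 

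The promoters of Egln3 and P4ha1 are shown because these genes were the largest falls of this list above 5 FPKM, and because HIF binds DNA at a core that reads ACGTG in its usual form. A variant of that core starts with G in place of A. Each runs from 250 bases before to 50 bases after the start of the gene, 5′ to 3′ on the gene's strand, from RefSeq on GRCm38.p6 (Egln3, chr12:54203825-54204124, minus strand; P4ha1, chr10:59323046-59323345, plus strand). Capitals mark the core and its variant on either strand.
Egln3: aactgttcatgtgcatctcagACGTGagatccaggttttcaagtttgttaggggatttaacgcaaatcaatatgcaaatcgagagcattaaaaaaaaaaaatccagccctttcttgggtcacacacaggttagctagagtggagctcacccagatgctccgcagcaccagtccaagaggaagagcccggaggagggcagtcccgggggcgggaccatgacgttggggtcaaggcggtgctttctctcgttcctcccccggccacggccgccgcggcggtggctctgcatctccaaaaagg
P4ha1: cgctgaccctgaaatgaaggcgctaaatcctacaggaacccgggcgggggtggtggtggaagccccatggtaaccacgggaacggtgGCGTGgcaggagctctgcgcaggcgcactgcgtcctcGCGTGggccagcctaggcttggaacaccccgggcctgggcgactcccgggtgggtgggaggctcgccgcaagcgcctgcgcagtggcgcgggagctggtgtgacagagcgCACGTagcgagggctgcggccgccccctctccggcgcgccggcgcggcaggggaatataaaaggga
The Egln3 window holds 1 usual core, and that of P4ha1 holds 1 usual core, read on its other strand, and 2 of the variant. The usual core on either strand was present in 20 of the 34 promoters found for the tested genes of this list (58.8%), against 26.8% of the promoters of the genes tested (found for 79.6% of them) and 19.7% of all 27025 promoters of the same length. The variant was present in 22 of the 34 (64.7%), against 54.2% of the promoters of the genes tested. Of the promoters of all genes called lower (found for 79.7% of them), 24.4% held the usual core. The usual core overlaps the E-box, a CACGTG, which 7.24% of all promoters hold. A match of these letters is a description and no evidence of binding.

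Germline genes that are kept silent by promoter methylation in most cells rose where they changed. Of 51 listed genes, 21 are in the table and 18 were tested, and of these 7 rose, 0 fell and 11 were not called, against 7.57% higher and 5.98% lower among all genes tested, with a median log2 fold change of 0.10. Of the 11, 6 had log2 fold changes below 0. Dazl, an RNA-binding protein needed for germ cell development, had the largest rise, at 12.2 and 12.2 FPKM in Con_24h and 21.4 and 22.2 FPKM in Vc_24h, 1.78-fold more (0.79, SE 0.07, adjusted p = 5.49e-06). Sycp3, a component of the axis of meiotic chromosomes, was at 1.93 and 1.48 FPKM in Con_24h and 3.19 and 3.13 FPKM in Vc_24h (0.63, SE 0.12, adjusted p = 0.00386), from 48 and 35 fragments in the controls to 73 and 65. Smc1b, the meiotic cohesin subunit, was at 1.12 and 1.11 FPKM in Con_24h and 2.12 and 2.15 FPKM in Vc_24h (0.57, SE 0.07, adjusted p = 2.01e-04). Tex15, which acts in the piRNA-guided silencing of transposons in male germ cells, was at 3.72 and 3.54 FPKM in Con_24h and 4.95 and 6.62 FPKM in Vc_24h (0.54, SE 0.09, adjusted p = 0.00152). For all of these, both Vc_24h libraries lay above both controls. Summed germ cell markers were also higher in both Vc_24h libraries, as given above, but that sum contains Dazl and is not separate from its rise. The part of germ cells in these rises was not tested. Smaller rises were in Fkbp6 (0.40), Piwil2 (0.38) and 4930432K21Rik (0.35), chosen for naming after their values were seen, and Piwil2 is a piRNA-binding Argonaute. Without 1 of the 4 libraries, 6 or 7 of the list rose and 0 fell, and with the spread of these 4 libraries alone 5 rose. Tex15 did not pass with the spread of these 4 libraries alone (adjusted p = 0.0618).

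The promoters of Dazl and Sycp3 are shown as the 2 largest rises of this list, with each CG dinucleotide, the site of DNA methylation, in capitals (GRCm38.p6, RefSeq; Dazl, chr17:50293571-50293870, minus strand; Sycp3, chr10:88459337-88459636, plus strand).
Dazl: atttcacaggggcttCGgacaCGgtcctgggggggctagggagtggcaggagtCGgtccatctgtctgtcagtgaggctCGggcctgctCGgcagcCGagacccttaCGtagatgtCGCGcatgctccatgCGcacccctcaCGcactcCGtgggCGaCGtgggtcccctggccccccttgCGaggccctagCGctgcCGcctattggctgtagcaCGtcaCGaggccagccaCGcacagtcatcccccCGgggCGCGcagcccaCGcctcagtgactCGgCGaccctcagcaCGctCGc
Sycp3: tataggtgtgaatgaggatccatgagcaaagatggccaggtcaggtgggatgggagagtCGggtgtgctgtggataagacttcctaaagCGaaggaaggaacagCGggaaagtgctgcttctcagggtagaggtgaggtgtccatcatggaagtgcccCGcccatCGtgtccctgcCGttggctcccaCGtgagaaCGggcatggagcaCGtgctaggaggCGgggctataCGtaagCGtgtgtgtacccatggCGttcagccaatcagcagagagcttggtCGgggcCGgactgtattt
Dazl holds 28 CG in these 300 bases and Sycp3 15, against a median of 7 over all 27025 promoters and of 22 over the promoters of the genes tested (found for 79.6% of them), so that Dazl lies above and Sycp3 below the latter. Of the tested genes of this list, 16 had a promoter in the table.

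**Figure D3:**
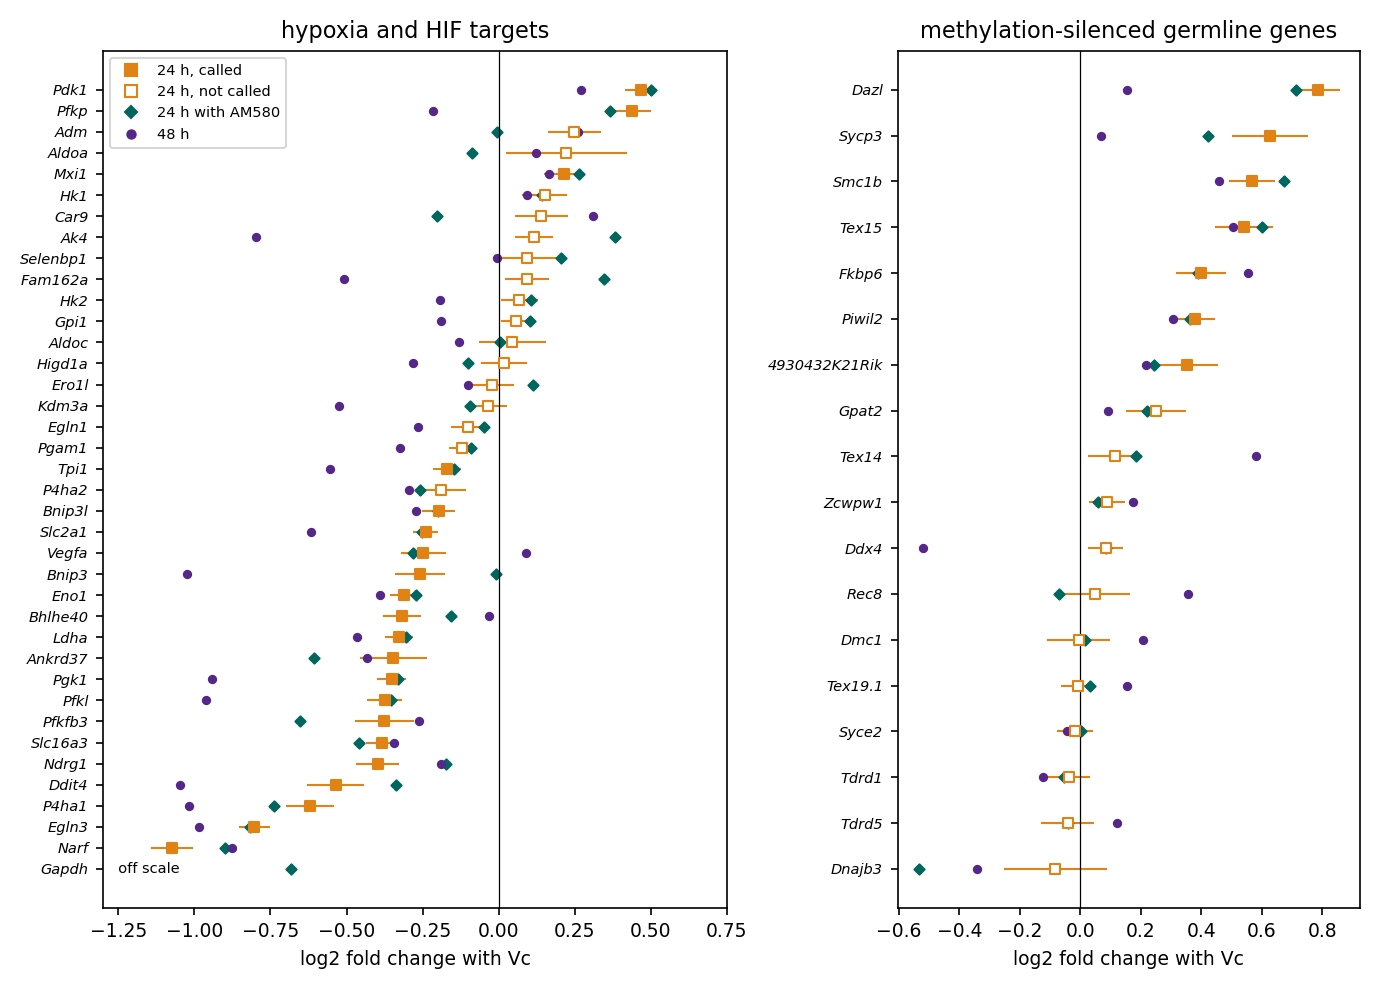
Log2 fold change with vitamin C for each tested member of the HIF target list (38 genes, left) and the germline list (18 genes, right), with squares for 24 h (filled where called, bars of 1 SE), diamonds for 24 h with AM580 and circles for 48 h. Narf and Egln3 lie lowest of the called HIF targets and Dazl highest of the germline genes, while Gapdh, which was not called, lies off the scale at 24 h.

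Among naive pluripotency genes, 6 of 25 rose, 3 fell and 16 were not called, against 7.57% higher and 5.98% lower among all genes tested. Nanog was at 32.5 and 31.9 FPKM in Con_24h and 32.6 and 35.5 FPKM in Vc_24h and was not called (0.08, SE 0.05, adjusted p = 0.334). Pou5f1, the OCT4 gene, was at 692 and 758 FPKM in Con_24h and 689 and 618 FPKM in Vc_24h and was not called either (-0.15, SE 0.05, adjusted p = 0.0859). Without 1 of the 4 libraries its log2 fold change was -0.23 to -0.07. Pou5f1 passed in the same direction with median-ratio scaling (limma adjusted p = 0.0369) and quantile normalization (0.00872). It also passed with the length and GC trend of each library removed (0.00183) and with limma-voom (0.0461). With vitamin C it was called lower at 48 h (-0.29, SE 0.05, adjusted p = 0.00314) but not in the presence of AM580 (-0.13, SE 0.05, adjusted p = 0.126). The largest changes of the list went both ways. Tdgf1, the Nodal co-receptor Cripto, fell from 367 and 385 FPKM in Con_24h to 260.5 and 247 FPKM in Vc_24h (-0.57, SE 0.04, adjusted p = 1.73e-06), and Gdf3, a ligand of the TGF-beta family, fell by 0.32 (adjusted p = 0.00192). Tdh, the threonine dehydrogenase on which ESCs depend, was at 28.0 and 27.3 FPKM in Con_24h and 38.6 and 39.4 FPKM in Vc_24h (0.48, SE 0.05, adjusted p = 7.00e-05), and the transcription factor gene Tfcp2l1 rose by 0.36 (SE 0.10, adjusted p = 0.0234). Tfcp2l1 did not pass with the spread of these 4 libraries alone, without Con_24h replicate 2 or without Vc_24h replicate 2 (adjusted p from 0.18 to 0.191).

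Of 12 genes of the formative state and the Nodal pathway, 4 rose, 4 fell and 4 were not called. Over all genes tested, 7.57% were called higher and 5.98% lower. Lefty1 (chr1:180935022-180938400, mm10), the secreted Nodal antagonist that Nodal signalling itself induces, had the smallest adjusted p of all genes named here. It was at 3.53 and 3.46 FPKM in Con_24h and 1.01 and 1.07 FPKM in Vc_24h, 3.36-fold less, with a log2 fold change of -1.14 (SE 0.04, adjusted p = 2.51e-09), from 122 and 114 fragments in the controls to 32 and 31. Sfrp2, a secreted Wnt modulator, was at 1.11 and 0.966 FPKM in Con_24h and 2.31 and 2.37 FPKM in Vc_24h (0.71, SE 0.07, adjusted p = 1.98e-05). Lef1, a transcription factor of the Wnt pathway, was at 5.71 and 5.72 FPKM in Con_24h and 4.11 and 3.56 FPKM in Vc_24h (-0.48, SE 0.08, adjusted p = 9.61e-04), and Fgf5, a marker of the formative epiblast, fell by 0.43 (adjusted p = 0.00506). Fgf5 did not pass with the spread of these 4 libraries alone or without Con_24h replicate 2 (adjusted p from 0.0572 to 0.0841). Of 19 Wnt targets and regulators, 3 rose and 4 fell, which include Apcdd1, Sfrp1 and Lef1 above, and Fzd7, a Wnt receptor, rose by 0.27. Fzd7 did not pass with the spread of these 4 libraries alone, without Con_24h replicate 2 or without Vc_24h replicate 2 (adjusted p from 0.0665 to 0.124).

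The genes by which the study follows gonadal somatic fate were near the detection limit. Gata4 was at 0.30 and 0.287 FPKM in Con_24h and 0.170 and 0.280 FPKM in Vc_24h, on 23 and 21 fragments in the controls and 12 and 18 with vitamin C, and was not called (-0.08, SE 0.10, adjusted p = 0.665). In other libraries, also below 1 FPKM, Gata4 was called lower with vitamin C. The change was -0.56 in V580_24h against AM580_24h (SE 0.10, limma adjusted p = 0.00191). In Vc_48h against Con_48h it was -0.54 (SE 0.10, adjusted p = 0.00313). Foxl2 was below the filter, with 8 and 4 fragments in the controls and 4 and 4 with vitamin C, so that a difference was not detectable at this depth. Of 14 gonadal somatic genes tested (of 30 listed), 0 rose and 2 fell: Fst, the activin antagonist follistatin (-0.44, SE 0.07, adjusted p = 0.00102), and Cited2 (-0.38, SE 0.05, adjusted p = 4.08e-04). Over all genes tested 7.57% were called higher and 5.98% lower, 13.6% in either direction, and the share of the 14 gonadal genes called was near the last. Of 22 genes of the retinoic acid response, 0 rose and 4 fell. Aldh1a3, which makes retinoic acid, fell by 0.64 (adjusted p = 2.97e-04), Cyp26a1, which degrades it, by 0.45 (adjusted p = 0.00457), Crabp2, which carries it to the nucleus, by 0.42 and Zfp703 by 0.33. Crabp2 did not pass with the spread of these 4 libraries alone or without Vc_24h replicate 1 (adjusted p from 0.0711 to 0.0929). Zfp703 did not pass with the spread of these 4 libraries alone, without Con_24h replicate 1, without Con_24h replicate 2 or without Vc_24h replicate 2 (adjusted p from 0.0851 to 0.114).

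Of 29 imprinted genes, 8 fell and 1 rose, against 5.98% lower and 7.57% higher among all genes tested. The rise was in Slc38a4, an amino acid transporter (0.24, named after its value was seen). The largest falls were in Cdkn1c, given above, Igf2, a fetal growth factor (0.755 and 0.587 FPKM in Con_24h and 0.145 and 0.319 FPKM in Vc_24h; -0.44, SE 0.09, adjusted p = 0.00613), Peg3 (-0.38, SE 0.08, adjusted p = 0.00861) and Dlk1 (-0.36, SE 0.07, adjusted p = 0.00435). Igf2 and Peg3 did not pass with the spread of these 4 libraries alone, without Con_24h replicate 1 or without Vc_24h replicate 1 (adjusted p from 0.0517 to 0.119). Dlk1 did not pass with the spread of these 4 libraries alone (adjusted p = 0.0968). Without 1 of the 4 libraries 4 to 7 of the list fell, and with the spread of these 4 libraries alone 0 fell and 0 rose.

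Of 19 targets of p53, 9 fell, 0 rose and 10 were not called, against 5.98% lower and 7.57% higher among all genes tested, with a median log2 fold change of -0.16. Plk2, a polo-like kinase, was at 27.7 and 26.3 FPKM in Con_24h and 20.5 and 19.6 FPKM in Vc_24h (-0.41, SE 0.05, adjusted p = 1.24e-04), and Perp, a membrane protein of epithelial junctions, at 38.0 and 41.1 FPKM in Con_24h and 31.3 and 28.4 FPKM in Vc_24h (-0.40, SE 0.05, adjusted p = 3.20e-04). Cdkn1a, the cell cycle inhibitor p21, was at 45.1 and 47.1 FPKM in Con_24h and 37.5 and 33.8 FPKM in Vc_24h (-0.36, SE 0.05, adjusted p = 4.77e-04), and Zmat3 fell by 0.30 (adjusted p = 0.00721). In all 4 genes both Vc_24h libraries were below both controls. Without 1 of the 4 libraries, 7 to 9 fell, and with the spread of these 4 libraries alone 4 fell. Of 30 cell cycle and replication genes, 3 rose and 4 fell, against 13.6% called in either direction among all genes tested, none of them by more than 0.20 in size (Cdk2), and 0 were called with the spread of these 4 libraries alone. Cdk2 did not pass with the spread of these 4 libraries alone or without Con_24h replicate 1 (adjusted p from 0.0577 to 0.183). Ccne1 and Top2a did not pass with the spread of these 4 libraries alone, without Con_24h replicate 1 or without Vc_24h replicate 1 (adjusted p from 0.0697 to 0.303). Gins2 did not pass with the spread of these 4 libraries alone, without Con_24h replicate 1, without Con_24h replicate 2 or without Vc_24h replicate 1 (adjusted p from 0.0871 to 0.309).

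Stress and metabolic lists were mixed, and 7.57% of all genes tested were called higher and 5.98% lower. Of 24 NRF2 antioxidant targets, 6 rose and 3 fell. Hmox1, heme oxygenase 1, had the largest change, at 287 and 301 FPKM in Con_24h and 209.6 and 196 FPKM in Vc_24h (-0.53, SE 0.05, adjusted p = 1.55e-05), while the rises were small, led by Gsr, glutathione reductase (0.26), and Srxn1, sulfiredoxin (0.24). Of 14 iron genes, 2 rose (Fbxl5, which senses iron and degrades the iron regulatory protein IRP2, 0.40, SE 0.06, adjusted p = 4.06e-04, and Aco1, 0.18) and 1 fell (Tfrc, the transferrin receptor, -0.25, SE 0.04, adjusted p = 0.00104). Of 24 ATF4 and unfolded protein response genes, 3 rose and 6 fell, with Atf3 furthest (-0.50, SE 0.10, adjusted p = 0.0048). Of 19 immediate early genes, 2 rose and 5 fell, which include Atf3, Egr1 (-0.36), Fosb (-0.32) and Jun (-0.29). Cholesterol synthesis genes rose in 6 of 23, 0 fell, and 21 of the 23 had positive log2 fold changes, led by Sqle, squalene epoxidase (0.34, SE 0.05, adjusted p = 2.34e-04). Among all autosomal genes tested, 50.6% had negative log2 fold changes. Gsr and Tfrc did not pass with the spread of these 4 libraries alone (adjusted p from 0.0709 to 0.0959). Srxn1 and Jun did not pass with the spread of these 4 libraries alone or without Con_24h replicate 1 (adjusted p from 0.0504 to 0.105). Aco1 and Fosb did not pass with the spread of these 4 libraries alone, without Con_24h replicate 1, without Con_24h replicate 2 or without Vc_24h replicate 1 (adjusted p from 0.0532 to 0.191). Egr1 did not pass without Con_24h replicate 1, without Con_24h replicate 2 or without Vc_24h replicate 1 (adjusted p from 0.0651 to 0.124). Without 1 of the 4 libraries 2 to 7 cholesterol genes and 3 to 6 NRF2 targets rose, and with the spread of these 4 libraries alone 1 and 0 rose. Of 17 genes that control endogenous retroviruses and piRNAs, 5 rose and 1 fell, led by Mov10, an RNA helicase, at 10.7 and 10.3 FPKM in Con_24h and 15.4 and 16.2 FPKM in Vc_24h (0.54, SE 0.05, adjusted p = 6.71e-06), and Chaf1b, a subunit of the histone chaperone CAF-1 (0.37, SE 0.05, adjusted p = 3.56e-04). Of 5 genes of the 2-cell-like state, 0 were called.

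**Figure D4:**
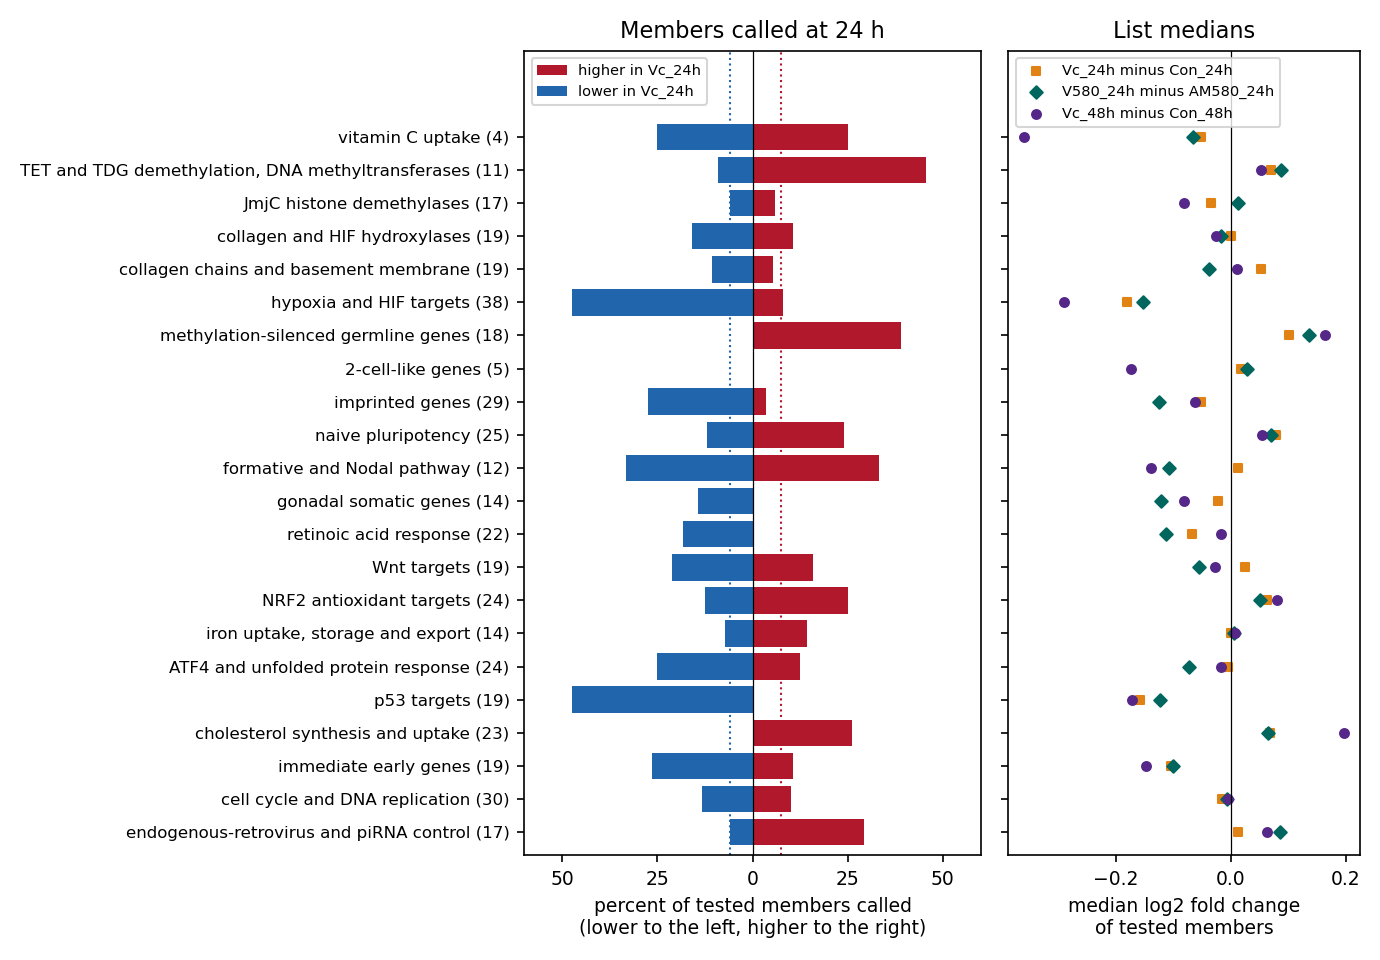
Left, percent of the tested members of each of the 22 gene lists called higher (to the right) and lower (to the left) in Vc_24h, with dotted lines at the shares over all genes tested, 7.57% and 5.98%. Right, the median log2 fold change of each list for vitamin C at 24 h, at 24 h with AM580 and at 48 h; the HIF and p53 targets lie below 0 and the germline genes above 0 in all 3.

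The same vitamin C contrast exists in libraries that share none with these 4: V580_24h against AM580_24h (14.8% of genes called, 7.44% higher and 7.31% lower with vitamin C) and Vc_48h against Con_48h (12.4%, 6.37% and 6.07%). The 3 contrasts use the same estimate of each gene's spread, from all 16 libraries. Genes with a small spread are therefore called more readily in all of them, and the shared calls below are not independent. Of the 1443 genes called at 24 h, 1401 (97.1%) had the same sign in the presence of AM580, against 75.9% of all genes tested. There 929 were called in the same direction, 64.4% of the 24 h calls and 59.2% of the calls with AM580, and 0 were called in the opposite direction. At 48 h, 1181 (81.8%) had the same sign, against 64.5% of all genes. There 480 of the 1443 were called in the same direction, 33.3% of the 24 h and 36.3% of the 48 h calls, and 30 in the opposite one. Called in the same direction in all 3 contrasts were 203 genes that rose and 178 that fell. Among the largest changes, Ly6a had a log2 fold change of 1.72 (SE 0.10, adjusted p = 1.25e-07) with AM580 but 0.06 (SE 0.10, adjusted p = 0.749) at 48 h, whereas Nlrp4f had 0.83 (SE 0.05, adjusted p = 1.85e-07) and 0.81 (SE 0.05, adjusted p = 2.33e-07). Egln3 was lower with vitamin C in all 3 contrasts (-0.82, SE 0.05, adjusted p = 1.11e-07 with AM580 and -0.98, SE 0.05, adjusted p = 1.72e-08 at 48 h), and so was Enpp2 (-0.65 and -0.95). Gm14322 (-0.26, SE 0.25, adjusted p = 0.55 and -0.07, SE 0.25, adjusted p = 0.899) and Sarnp (-0.25, SE 0.17, adjusted p = 0.384 and -0.49, SE 0.17, adjusted p = 0.0857) were called in neither. Without 1 of its own libraries each of these contrasts kept fewer calls, 792 to 896 of V580_24h against AM580_24h (792 without V580_24h replicate 2) and 583 to 720 of Vc_48h against Con_48h (583 without Vc_48h replicate 2).

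The gene lists behaved alike in part. Over all genes tested, 7.44% were called higher and 7.31% lower with AM580, and 6.37% and 6.07% at 48 h. HIF targets were called lower in 16 of 38 with AM580 (5 higher) and in 24 of 38 at 48 h (2 higher), with medians of -0.15 and -0.29. At 48 h P4ha1 was at 9.35 and 10.4 FPKM in Con_48h and 4.37 and 4.35 FPKM in Vc_48h (-1.02, SE 0.08, adjusted p = 1.27e-06) and Pgk1 at 426 and 446 FPKM in Con_48h and 225 and 228 FPKM in Vc_48h (-0.94, SE 0.05, adjusted p = 1.72e-08). Germline genes were called higher in 6 of 18 with AM580 (1 lower) and in 5 of 18 at 48 h (1 lower). Dazl rose with AM580 (0.71, SE 0.07, adjusted p = 1.31e-05) and did not pass at 48 h (0.15, SE 0.07, adjusted p = 0.161). Targets of p53 were called lower in 9 of 19 with AM580 and in 8 of 19 at 48 h, with 1 higher in each, and imprinted genes lower in 8 of 29 and 7 of 29. Cholesterol genes were called higher in 3 of 23 with AM580 and in 11 of 23 at 48 h.

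**Figure D5:**
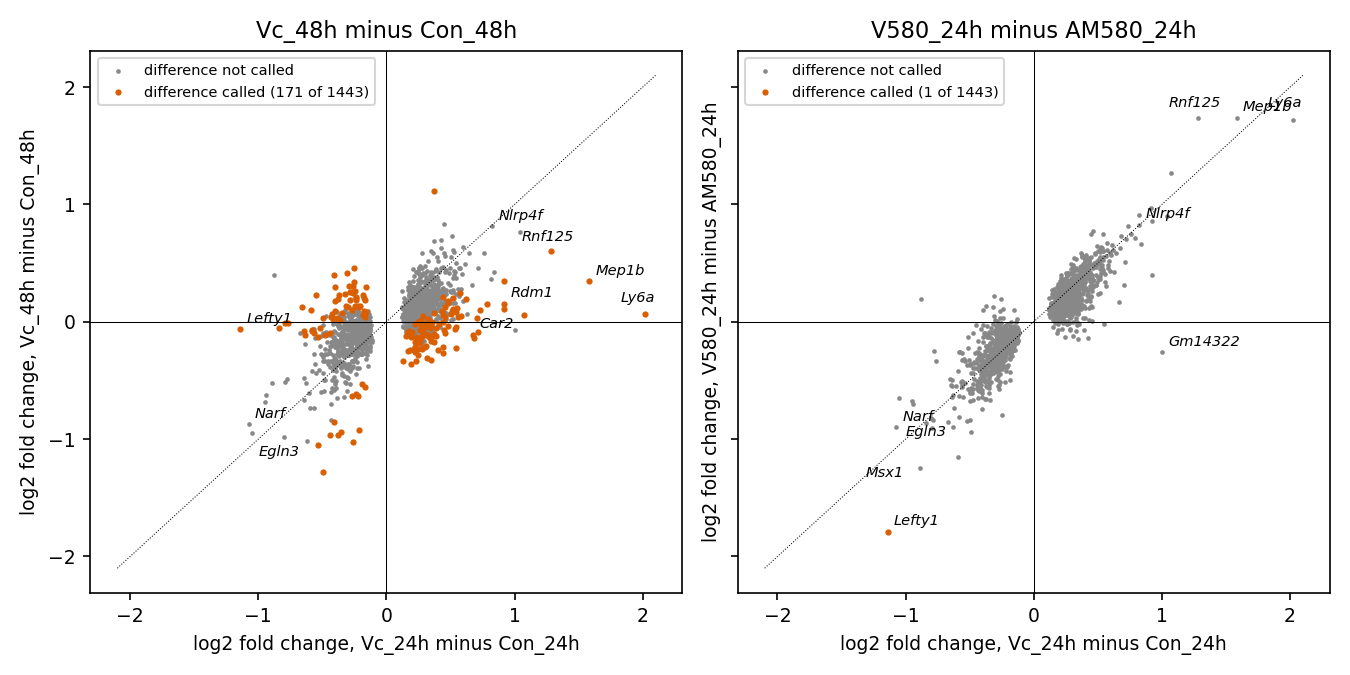
Log2 fold change between Vc_24h and Con_24h (horizontal) against that between Vc_48h and Con_48h (left) and between V580_24h and AM580_24h (right) for the 1443 genes called at 24 h, with genes whose difference between effects was called in orange and the dotted line marking equal effects. The points lie closer to that line on the right, where 1 gene (Lefty1) was called different, than on the left, where 171 were.

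The vitamin C effect at 24 h differed from that at 48 h for 309 genes (2.9% of genes tested) by a test of the difference itself, and 171 of these were among the 1443 called at 24 h. Lefty1 and Ly6a had the smallest adjusted p of them. Ly6a was at 0.125 and 0.237 FPKM in Con_48h and 0.385 and 0.0955 FPKM in Vc_48h, close to silent in every library of the later time, and the difference between its effects was 1.96 (SE 0.14, adjusted p = 8.11e-06). Ly6a is also expressed by fibroblasts, and the summed fibroblast markers were 162 to 190 FPKM in the 48 h libraries of these groups against 524 to 575 FPKM at 24 h. At 24 h those markers summed to 563 and 524 FPKM in Vc_24h and to 566 and 575 FPKM in Con_24h. The part of fibroblasts in the rise of Ly6a at 24 h and in its difference between times was not tested. Lefty1 moved the other way between times, to 99.9 and 96.2 FPKM in Con_48h and 93.2 and 94.2 FPKM in Vc_48h, a level at which vitamin C made no called difference (-0.06, SE 0.04, adjusted p = 0.392), and its difference between effects was -1.08 (SE 0.06, adjusted p = 6.82e-07). Mep1b had a smaller rise at 48 h (0.35, SE 0.08, adjusted p = 0.00751, difference 1.24, SE 0.11, adjusted p = 4.04e-05). Ak4, a mitochondrial adenylate kinase, and Lgals9, galectin 9, were not called at 24 h (0.12 and 0.03) but changed at 48 h by -0.80 and 0.97 (adjusted p of the difference 8.40e-05 and 1.29e-04). Of the 38 HIF targets, 10 differed between times. The count of 309 fell to 190 without Vc_48h replicate 1, 164 without Vc_48h replicate 2, 160 without Con_48h replicate 1 and 180 without Con_48h replicate 2, and to 118 with the spread of these 8 libraries alone.

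AM580 altered the vitamin C effect at 24 h for 4 genes (0.0376% of genes tested) at an adjusted p below 0.05, with 472 at an unadjusted p below 0.05. Lefty1 fell further in its presence, from 10.0 and 9.44 FPKM in AM580_24h to 2.21 and 2.01 FPKM in V580_24h (-1.79, SE 0.04, adjusted p = 4.40e-12, difference 0.65, SE 0.06, adjusted p = 5.72e-04). Without AM580 Lefty1 was at lower levels, where the pseudocount of 1 shrinks a fold change more. The part of this scale in the difference was not tested. Hoxb8, a homeobox gene, Axin2, a feedback inhibitor of Wnt signalling, and Gata6, a transcription factor of endoderm, were not called between Vc_24h and Con_24h (0.18, 0.21 and -0.01) and were lower with vitamin C in the presence of AM580 (-0.48, -0.42 and -0.82), with adjusted p for the difference of 0.0327, 0.0347 and 0.0347. Gata6 was at 3.79 and 3.58 FPKM in AM580_24h and 1.58 and 1.72 FPKM in V580_24h. The count was 1 without Vc_24h replicate 1 or 2, V580_24h replicate 1 or 2 or AM580_24h replicate 1 or 2, 2 without Con_24h replicate 2, and 0 with the spread of these 8 libraries alone.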

How the data were processed

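Poly-A RNA-seq of 16 libraries (8 groups of 2, with and without vitamin C and AM580 at 24 and 48 h) was used, of which 4 form the comparison. The authors deposited 1 table of FPKM values, and per the labels their processing used Trim Galore, FastQC, HISAT2, SAMtools, featureCounts and RSEM with the mm10 build, for which no versions are given in the sources used here. The FPKM divide out exon length and library total, so a change in total RNA per cell is not visible in them. The values were nearly all whole multiples of 1 fragment for exon lengths of the GRCm38 annotation (12978 of 13655 genes whole within 0.02 fragments in all 16 libraries), which gave the depth. The deposited FPKM were used as log2(FPKM + 1). Of 13682 genes, the 10644 with at least 1 FPKM in at least 2 libraries were tested with limma 3.58.1 (R 4.3.3), as contrasts of group means over the 16 libraries with a mean-dependent prior variance and without a term for the replicate number. A gene was called at a Benjamini-Hochberg adjusted p below 0.05 over all genes tested. The test was run on simulated data with independent noise and 1 spread per gene in all groups. It called 91% of the changes of 0.5 and 100% of those of 1 on the log2 scale, with 13 false calls. The simulation left out the wider scatter of Vc_24h and Con_24h replicates and its tie to gene length, so it cannot show their effect. Genes were named by a rule: the study's markers Gata4, Foxl2, Nanog and Pou5f1, the members of 3 lists (vitamin C uptake, TET and DNA methyltransferases, hydroxylases), the 12 largest rises and falls of called genes that reached a mean of 5 FPKM in 1 of the groups and did not overlap, up to 4 called members of each list, and the 5 smallest adjusted p of each difference between effects. Of the genes so named, 1 is not reported here. The members and lists were chosen with earlier results of these data known. Alternatives changed the pseudocount, the filter, the scaling, the libraries that give the spread, the threshold and the replicates, and 3 were added after the data were seen (removing the length and GC trend of each library, crossing the replicate numbers and fitting limma-voom to the recovered fragments). The table's 15 other columns of per-sample values and 3 other files were not used. Genes with near-identical copies, such as Ly6a, Nlrp4f and Gm14322, may share fragments, and whether the counting used strand is not given in the sources used here.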

Additional observations from a re-analysis of the deposited data

Results flagged for a closer look

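The effect of vitamin C differed between 24 h and 48 h, by a limma test of the difference itself, for 309 genes at an adjusted p below 0.05. Of the genes named, the log2 fold change was larger (or less negative) at 24 h than at 48 h, by the difference given, in Ly6a (1.96), Rnf125 (0.68), Rdm1 (0.77), Apcdd1 (0.81), Dazl (0.63), B4galt6 (0.63), Fam131c (0.82), Car2 (0.79), Slc2a1 (0.38), Idh1 (0.42), Dnmt3b (0.40), Ddit4 (0.51), Tdh (0.32), Sfrp2 (0.80), Fst (0.53), Slc7a5 (0.32), Mep1b (1.24) and Ak4 (0.91). It was smaller (or more negative) at 24 h in Sfrp1 (-0.79), Klhl13 (-0.50), Lefty1 (-1.08), Aldh1a3 (-0.56), Hmox1 (-0.41) and Lgals9 (-0.94). These genes fall into groups of different kinds. Ly6a, Rdm1, Dazl, Car2 and Fam131c rose at 24 h and were not called at 48 h. Sfrp1, Klhl13 and Lefty1 fell at 24 h and were not called at 48 h. Slc2a1 and Ddit4, HIF targets, fell at both times and further at 48 h, and Ak4, another HIF target, fell at 48 h and was not called at 24 h.

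The effect at 24 h also differed with and without AM580 for 4 genes, each with the lower log2 fold change in the presence of AM580: Lefty1 (difference 0.65), Hoxb8 (0.66), Axin2 (0.64) and Gata6 (0.81). With 2 libraries a group, no library could be marked as standing apart from its group.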

How the results depend on the processing

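Of the 99 named genes tested, 91 were called between Vc_24h and Con_24h, 47 of these under every alternative, and 0 of the 91 changed direction. Among the genes not called, Gata6 (-0.046 to 0.034) and Lgals9 (-0.016 to 0.081) changed sign. Some of the genes not called passed elsewhere: Hoxb8 with a pseudocount of 0.1 (0.44, limma adjusted p = 0.03) and Pou5f1 in the settings given above. Axin2 passed with a filter of 5 FPKM (adjusted p = 0.0493) and with limma-voom (0.0373). With the spread taken from the 4 libraries alone, 42 lost their call, and 31 lost it without 1 or another of the 4 libraries. The count of 1443 called genes was 257 with the spread of the 4 libraries, 636 at an adjusted p below 0.01, 10 at an unadjusted p below 0.05 with at least 2-fold change, 1756 with the length and GC trend of each library removed, 1407 with limma-voom on the recovered fragments, and 850 to 1369 without 1 library. The 9 called at 2-fold became 42 with a pseudocount of 0.1 and 53 with limma-voom, and 9 to 10 without 1 library. Fits with fewer libraries have fewer degrees of freedom by construction. With the spread of its own libraries, however, Vc_48h against Con_48h gave 1593 calls in place of 1324. V580_24h against AM580_24h likewise gave 2010 in place of 1570. Why the count fell for Vc_24h against Con_24h and rose for these was not tested. For the other settings the cause was not tested either. The list medians kept their sign for the HIF targets (-0.24 to -0.12), the p53 targets (-0.24 to -0.15) and the germline genes (0.083 to 0.15), and 20 of 308 medians of the 22 lists under alternatives changed sign. The count of Vc_48h against Con_48h was 583 to 720 and that of V580_24h against AM580_24h 792 to 896 without 1 of their own libraries. The difference between times gave 118 genes with the spread of its own libraries and 160 to 315 without 1 library. The difference with AM580, 4 genes, gave 0 with the spread of its own libraries, 1 without a filter, 8 with a filter of 5 FPKM, 7 with quantile normalization, 8 with robust empirical Bayes, 8 with the length and GC trend removed, 2 with limma-voom, and 1 to 5 without 1 library.

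Same-numbered libraries did not deviate alike: of 28 pairs of groups, their deviations correlated from -0.424 to 0.209, with 7 over 0.1. The lowest, -0.424, was that of Vc_24h with Con_24h, so in the comparison of this report same-numbered libraries tended to deviate in opposite directions. With the replicate number as a block, 1336 genes were called at 24 h, the difference with AM580 gave 1 gene, and of the named genes Gins2 lost its call (adjusted p = 0.0636). With the numbers of 1 group crossed, 2066 were called, 9 of them at 2-fold. The replicate differences followed gene length (Spearman 0.438 for Con_24h and -0.481 for Vc_24h across genes, which are not independent replicates), and the difference between groups did so less (-0.029). With GC content the Spearman correlation was -0.103 and 0.229 for the replicate differences of Con_24h and Vc_24h. For the difference between groups it was 0.146, which lies between these in size. Depth limits genes such as Foxl2, at 4 to 8 fragments a library.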

Other observations

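Genes of the X chromosome were called lower more often than those of other chromosomes. Of 351 X-linked genes tested, 43 (12.3%) were lower and 15 (4.27%) higher in Vc_24h, against 5.76% and 7.7% of 10270 autosomal genes, and their median log2 fold change was -0.036. The chromosome was not in the named-gene rule and was looked at after the values were seen. The X-linked share of all FPKM was 3.09% and 3.09% in Con_24h and 2.99% and 3.01% in Vc_24h, so that both Vc_24h libraries were lower. Klhl13, already described, fell furthest. Acsl4, an enzyme that activates arachidonic acid, was at 11.7 and 12.03 FPKM in Con_24h and 8.38 and 8.61 FPKM in Vc_24h (log2 fold change -0.44, limma adjusted p = 2.42e-05). Morf4l2, a chromatin protein, was at 176 and 181 FPKM in Con_24h and 136 and 132 FPKM in Vc_24h (-0.41, adjusted p = 9.31e-06). Rlim, a ubiquitin ligase that acts in X inactivation, fell by 0.23 on the log2 scale (adjusted p = 0.0111), whereas Hdac6, a cytoplasmic deacetylase, rose by 0.43 (adjusted p = 0.000211). With AM580, 51 of the 351 genes (14.5%) were lower with vitamin C and 12 (3.42%) higher, against 7.05% and 7.59% of autosomal genes. At 48 h 35 (9.97%) were lower and 23 (6.55%) higher, against 5.93% and 6.35% of autosomal genes. The median log2 fold change of the X-linked genes at 48 h was -0.008, and 51.6% were negative, against 49.7% of autosomal genes.

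Other families were grouped by symbol after the values were seen, and 7.57% of all genes tested were higher and 5.98% lower. Of 76 cytoplasmic ribosomal protein genes 0 were called, while 67 had negative log2 fold changes with a median of -0.065. Of 73 subunit genes of oxidative phosphorylation, 1 rose and 1 fell, and 54 had negative log2 fold changes. Among all autosomal genes tested, 50.6% had negative log2 fold changes. Of 283 genes named Zfp, most of them zinc finger proteins, 26 rose and 12 fell, and of 181 solute carriers 22 rose and 13 fell. The share of genes called depended on the level: 8.58% of genes under 1 FPKM at 24 h were called, and 11.9% of those between 1 and 5 FPKM.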
